A study of Mus musculus with 64 samples.

Results

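The hearts of wild-type mice on a high-sucrose diet (HSD) were compared with those of wild-type mice on chow. The members are the 4 heart libraries with genotype CTRL and diet HSD and the 4 with genotype CTRL and diet chow, 8 of the 64 libraries of the series, picked by the tissue, genotype and diet in the labels. The series measured RNA in liver, muscle, white adipose tissue and heart, and its title concerns the liver pyruvate kinase gene Pklr, so the heart comparison asks what the sugar diet did in a tissue outside the liver. The CTRL mice were male, wild type and of the strain C57BL/6J by the protocol. The HSD group ate the sucrose diet for 8 weeks from 8 weeks of age, and the chow group stayed on chow. Both were sampled at 16 weeks. The same diets in mice labelled KO, described as Pklr-/-, gave 4 HSD and 4 chow hearts, and muscle of the CTRL mice gave another 4 and 4 libraries. These served only to ask whether a response differed by genotype or tissue. Pklr itself was at most 0.113 normalized CPM (counts scaled to library size) in any CTRL heart, so the heart data do not check the KO label.

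The adult heart takes most of its energy from fatty acids burned in its many mitochondria, and it also uses glucose, lactate and ketone bodies. Its muscle cells hold most of the RNA, and between them lie endothelial cells, fibroblasts and resident macrophages. Some of those macrophages and dendritic cells carry MHC class II, the surface proteins that show peptides to helper T cells, and CIITA is the coactivator that turns those genes on. Secreted and membrane proteins are folded in the endoplasmic reticulum by chaperones whose genes are induced by the unfolded protein response.

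Total estimated counts were 9526848 to 10765216 per CTRL HSD library and 8078078 to 12188595 per CTRL chow library. Transcripts of the mitochondrial genome made up 43.05 ± 1.8% of counts on HSD and 40.45 ± 1.05% on chow (SD, n = 4 each; exact permutation test, two-sided p = 0.0571, where 70 arrangements allow no p below 0.0286). Ventricular muscle markers summed to 45000 to 52300 CPM on HSD and 39800 to 48900 CPM on chow, high in all 8 libraries. Replicate 2 of each diet also held atrial transcripts. The atrial light chain Myl7 was at 44.4 CPM in HSD replicate 2 and at 84.3 CPM in chow replicate 2, and at most 0.718 CPM in the other 6. Sarcolipin (Sln), an atrial regulator of the calcium pump, was at 16.2 and 42.4 CPM in the same pair of libraries and at most 0.239 CPM in the others. Results are therefore also given without this pair. Markers of lymphocytes summed to at most 1.6 CPM and those of lung to at most 1.14 CPM. In tissue RNA, fewer cells of a type and less RNA per cell cannot be told apart.

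On the sucrose diet, 3 genes fell and 0 rose among the 12134 genes tested with edgeR's quasi-likelihood test at a Benjamini-Hochberg adjusted p under 0.05, which is 0.0247% of the genes. The 3 were H2-Aa and H2-Ab1, which encode the chains of the MHC class II protein, and B3galt2, a galactosyltransferase that builds sugar chains on proteins and lipids. At an unadjusted p under 0.05 there were 276 higher genes (2.27%) and 471 lower ones (3.88%). The HSD libraries all lay above the chow libraries for 232 genes (1.91%) and all below for 276 (2.27%), and the median log2 fold change over all genes was -0.0028. The DESeq2 Wald test called 6 higher and 12 lower genes, and limma on log2(TPM + 1) called 0. The call of H2-Aa alone was left when any 1 of HSD replicates 1, 2 and 3 or chow replicates 2 and 4 was left out, and 0 genes were called without both libraries that held atrial transcripts.

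MHC class II genes had the lowest median of the lists examined. The list was assembled after the values had been seen, so its counts describe and do not test. Of its 11 genes, 7 had enough counts to be tested. All 7 had lower means on HSD, with a median log2 fold change of -1.005, and 6 were lower at an unadjusted p under 0.05, against 3.88% of all genes. The summed level of the 11 was 58.5 to 88.1 CPM on HSD and 154 to 169 CPM on chow.

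The promoters of H2-Aa and H2-Eb1 are shown because MHC class II genes are known to share an X box and a Y box, the elements on which CIITA and its DNA-binding partners assemble. Each is the 250 bases before the RefSeq gene start on GRCm38.p6, 5′ to 3′ on the gene's strand. H2-Aa lies at chr17:34287824-34288073 on the minus strand and H2-Eb1 at chr17:34305617-34305866 on the plus strand. Capitals mark the X box core GCAAC and the Y box CTGATTGG.
H2-Aa: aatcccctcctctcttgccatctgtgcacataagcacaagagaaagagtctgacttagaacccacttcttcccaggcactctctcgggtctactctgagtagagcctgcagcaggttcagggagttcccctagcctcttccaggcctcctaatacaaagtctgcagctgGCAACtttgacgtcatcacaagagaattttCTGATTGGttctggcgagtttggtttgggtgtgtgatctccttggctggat
H2-Eb1: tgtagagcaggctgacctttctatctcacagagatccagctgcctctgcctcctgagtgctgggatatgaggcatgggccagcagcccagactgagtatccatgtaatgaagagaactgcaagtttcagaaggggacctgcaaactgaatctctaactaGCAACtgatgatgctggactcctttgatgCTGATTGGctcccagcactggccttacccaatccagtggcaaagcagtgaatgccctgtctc

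In H2-Aa the X core spans bases -81 to -77 and the Y box -51 to -44, counted back from the gene start. In H2-Eb1 they span -91 to -87 and -62 to -55. Searched on both strands, the Y box letters were in 598 (6.23%) of the 9601 tested genes that had a promoter in the RefSeq table. The X core 20 to 50 bases before a Y box was in 22 (0.229%). Of the 4 tested MHC class II genes with a promoter in the table, these 2 genes held that arrangement. A letter match is a description and shows no binding.

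H2-Aa (chromosome 17, 34282744 to 34287823, GRCm38) encodes the alpha chain. It was at 19.7, 22.1, 25.4 and 19.2 CPM in the HSD hearts, against 46.5, 46, 44.7 and 35.9 CPM in the chow hearts. No HSD library reached the lowest chow library. The means were 21.6 ± 2.85 CPM on HSD and 43.3 ± 4.99 CPM on chow (SD, n = 4 each). The gene fell by 1.005 on the log2 scale, with a standard error of 0.13 (edgeR adjusted p = 0.00308). It stayed below the threshold when any 1 of the 8 libraries was left out, with adjusted p-values of 0.00165 to 0.0335. Without both libraries that held atrial transcripts the log2 fold change was -0.99 and the adjusted p was 0.119, so the call was lost with 3 against 3 libraries.

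H2-Ab1 (chromosome 17, 34257689 to 34269419) encodes the beta chain that pairs with H2-Aa. It was at 10.9, 11.1, 9.58 and 5.78 CPM on HSD, against 22.1, 24.8, 21.3 and 25.8 CPM on chow. Every HSD library lay below every chow library. It fell by 1.32 on the log2 scale with a standard error of 0.21 (edgeR adjusted p = 0.0382). Leaving out any 1 of the 8 libraries moved the adjusted p to 0.0596 to 0.201, above the threshold each time, and without the atrial pair it was 0.455.

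The other tested class II genes also had lower means on HSD, without passing the test. Cd74, the invariant chain that guides class II proteins to the peptide-loading compartment, was at 37.4, 37, 45.4 and 28 CPM on HSD, against 69.7, 84.3, 76.9 and 76.9 CPM on chow (log2 fold change -1.06 ± 0.19 SE, edgeR adjusted p = 0.112). H2-Eb1, the beta chain of the H2-E protein, was at 3.79, 3.43, 3.41 and 2.27 CPM on HSD, against 10.8, 6.12, 8.15 and 7.65 CPM on chow (-1.34 ± 0.30, adjusted p = 0.282). H2-DMa, which helps load peptides, was at 1.99, 1.72, 1.81 and 1.7 CPM on HSD, against 3.75, 3.28, 3.15 and 3.71 CPM on chow. For these 3 genes the highest HSD library lay under the lowest chow library. The coactivator Ciita was at 0.569, 0.504, 0.745 and 0.567 CPM on HSD, against 1.68, 0.71, 1.39 and 0.957 CPM on chow, where the groups overlapped at a low level. H2-DMb1, the partner of H2-DMa, was at 1.52, 1.72, 1.06 and 0.68 CPM on HSD, against 1.68, 2.75, 1.76 and 2.15 CPM on chow, and the diets overlapped. H2-Oa, H2-Ob, H2-Eb2 and H2-DMb2 were at most 0.71 CPM and were not tested.

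**Figure D1:**
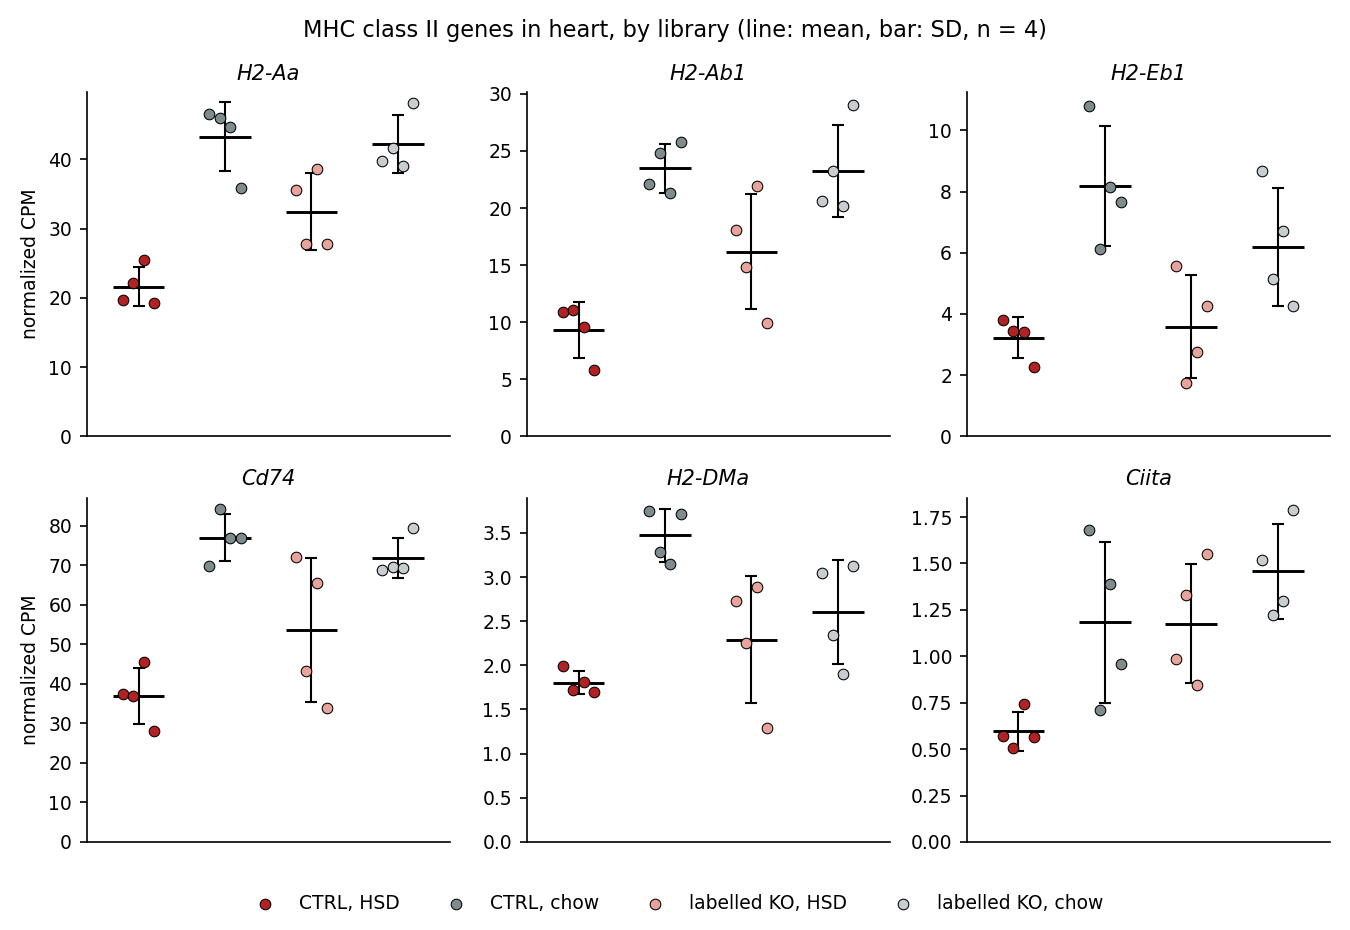
Normalized CPM (y axis, from 0) of 6 MHC class II genes in each heart library of 4 groups, with the mean as a line and the SD as a bar (n = 4). CTRL HSD libraries lie at 19.2 to 25.4 CPM for H2-Aa, below all CTRL chow libraries, while the labelled KO HSD libraries, at 27.8 to 38.6 CPM, lie closer to theirs.

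In the labelled KO hearts the class II genes also had lower means on HSD. H2-Aa averaged 32.5 ± 5.51 CPM in labelled KO HSD hearts and 42.1 ± 4.15 CPM in labelled KO chow hearts (SD, n = 4 each), a log2 fold change of -0.38 ± 0.12 SE. H2-Ab1 averaged 16.2 ± 5.07 CPM and 23.3 ± 4.08 CPM in those groups, a log2 fold change of -0.52 ± 0.21. The median over the 7 tested class II genes was -0.42 in labelled KO. The difference between genotypes did not pass for H2-Aa (interaction -0.63 ± 0.18 on the log2 scale, edgeR adjusted p = 0.534) or for H2-Ab1 (-0.81 ± 0.30, adjusted p = 0.969), so the diet effect is not shown to depend on genotype. In CTRL muscle, H2-Aa had a log2 fold change of -0.10 ± 0.16 and Cd74 one of -0.07 ± 0.15. The difference between heart and muscle was -0.91 ± 0.22 for H2-Aa (edgeR adjusted p = 0.122) and -0.99 ± 0.21 for Cd74 (adjusted p = 0.0938), and neither passed.

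All 12 macrophage markers had lower means on HSD, with a median log2 fold change of -0.41, and 0 were called by edgeR. At an unadjusted p under 0.05, 6 of the 12 were lower, against 3.88% of all genes. In labelled KO their median was -0.02, with 0 lower and 0 higher at that p. The diet by genotype interaction was at that p for 5 of the 12, without passing the adjusted test, and for 245 positive and 335 negative of 12134 genes. In CTRL the sum of the markers was 258 to 330 CPM on HSD and 317 to 475 CPM on chow, so the groups overlapped. Csf1r, the receptor that macrophages need to live, was at 23.3, 27.4, 30.1 and 25.7 CPM on HSD, against 38.2, 32.1, 36.9 and 34.1 CPM on chow (-0.41 ± 0.12 SE, adjusted p = 0.478). Lyz2, lysozyme, was at 113, 120, 152 and 141 CPM on HSD, against 219, 146, 168 and 176 CPM on chow (-0.43 ± 0.13). Adgre1, which encodes the F4/80 antigen, had a log2 fold change of -0.54 ± 0.18 and the fractalkine receptor Cx3cr1 one of -1.07 ± 0.36. Without chow replicate 1, the highest in Lyz2 and Adgre1, 3 of the 12 markers were lower at that p and the median was -0.32.

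Of 12 dendritic and antigen-presenting cell genes, a list also made after the values were seen, 8 were tested. All 8 had lower means, with a median of -0.62, and 5 were lower at an unadjusted p under 0.05, against 3.88% of all genes. Mpeg1, a pore-forming protein of macrophages, was at 8.06, 8.27, 10 and 9.52 CPM on HSD, against 17.2, 13.4, 16.7 and 10.3 CPM on chow. The diets did not overlap. Ctss, a protease that trims the invariant chain, and Ptprc, the CD45 antigen of all white blood cells, overlapped between diets, with log2 fold changes of -0.58 ± 0.16 and -0.67 ± 0.28. The summed level of the 12 genes was 46.6 to 58.6 CPM on HSD and 59.7 to 99.2 CPM on chow, with a narrow gap between the diets. The macrophage sum overlapped only through chow replicate 2, a library with atrial transcripts, at 317 CPM. Without the atrial pair it was 258 to 330 CPM on HSD and 355 to 475 CPM on chow, so the 2 lists do not differ clearly in this. The part of cell number in the class II result was not tested.

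Genes induced by interferon had lower means on HSD in most cases. Of 24 tested, 7 were lower at an unadjusted p under 0.05 and 0 higher, against 3.88% and 2.27% of all genes. Lower means were found for 21 of the 24, and the median was -0.31. Iigp1, a GTPase that attacks the vacuoles of intracellular parasites, was at 25.5, 25.1, 24.5 and 27.8 CPM on HSD, against 78.6, 85.2, 35.8 and 50.3 CPM on chow (-1.28 ± 0.27 SE, edgeR adjusted p = 0.295). The HSD values were nearly equal, and the chow values spread widely above them. B2m, the light chain of MHC class I, was at 137, 134, 173 and 126 CPM on HSD, against 212, 181, 184 and 182 CPM on chow (-0.41 ± 0.11). The guanylate-binding protein gene Gbp7 had a log2 fold change of -0.45 ± 0.11 and the transcription factor Irf1, which drives class I and CIITA expression, one of -0.41 ± 0.13, with no overlap of the diets for either. In labelled KO the list's median was 0.02. Without chow replicate 2 alone, and likewise without the atrial pair, 4 members were lower at that p.

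B3galt2 (chromosome 1, 143640664 to 143654614) was at 8.35, 6.56, 6.7 and 8.39 CPM on HSD, against 12, 15.9, 12.6 and 14.6 CPM on chow, with no overlap. It fell by 0.87 on the log2 scale with a standard error of 0.14 (edgeR adjusted p = 0.0263). The call held in 3 of the 8 runs with 1 library left out, namely those without HSD replicate 4, chow replicate 1 or chow replicate 3, with adjusted p-values of 0.0288 to 0.201, and without the atrial pair the adjusted p was 0.455. It was also called in labelled KO hearts, where the means were 10.1 ± 1.38 CPM on HSD and 16.2 ± 0.853 CPM on chow (SD, n = 4 each; -0.69 ± 0.13 SE, adjusted p = 0.047). In CTRL muscle its log2 fold change was 1.01 ± 0.21, so the heart and muscle effects differed by -1.88 ± 0.29 (edgeR interaction test, adjusted p = 0.0452), the 1 gene called of 12394 (0.00807%). This difference was called in 5 of the 16 runs with 1 library left out, with adjusted p-values of 0.0023 to 0.122. In the fit with the title number as a replicate block its adjusted p was 0.0538, so it was not called, and 2 other genes were. In the RefSeq promoter of B3galt2 the E-box CACGTG, a clock element, was found, as in 957 (9.97%) of the 9601 promoters, and neither its promoter nor that of H2-Aa held the D-box TTANGTAA (160 promoters, 1.67%) or the ROR core TAGGTCA (184, 1.92%) on either strand. B3galt2 lies inside the span of Cdc73 on the opposite strand. Cdc73 averaged 40.4 CPM on HSD and 34.1 CPM on chow, and whether the counting used strand is not given in the sources used here.

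Other genes among the 10 smallest p-values did not pass and are given as values. Slc46a3, a lysosomal transporter, was at 5.22, 4.64, 5.53 and 5.55 CPM on HSD, against 7.58, 9.85, 8.43 and 9.21 CPM on chow (-0.74 ± 0.14 SE, edgeR adjusted p = 0.112). Its log2 fold change in labelled KO was 0.33, and the interaction of -1.08 had an adjusted p of 0.0634. The water channel Aqp1, abundant in the capillaries of the heart, was at 480, 455, 454 and 437 CPM on HSD, against 310, 362, 348 and 312 CPM on chow (0.46 ± 0.09, adjusted p = 0.125), and its log2 fold change in labelled KO was 0.41. Alb, the serum albumin of hepatocytes, was at 11.8, 15.4, 14.4 and 14.8 CPM on HSD, against 5.27, 8.79, 8.06 and 9.93 CPM on chow (0.83 ± 0.16, adjusted p = 0.125). Transcripts of Apoa2 and Ttr, also of liver, stayed at or below 1.8 CPM. Of the 4 hepatocyte markers tested, 3 had higher means and 1, Cyp2e1, a lower one (-1.17). The sum of the 9 measured was 20 to 25.6 CPM on HSD and 14 to 25.1 CPM on chow, so the diets overlapped. F830016B08Rik, a gene without an assigned name, was at 2.56, 4.24, 2.66 and 4.87 CPM on HSD, against 24.2, 16, 6.94 and 8.13 CPM on chow.

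Chaperones of the endoplasmic reticulum had lower means on HSD. All 20 genes of the unfolded protein response had lower means. At an unadjusted p under 0.05, 13 were lower, against 3.88% of all genes, and 10 lay lower without overlap of the diets, against 2.27%. The median log2 fold change was -0.46, and 0 were called by edgeR. The promoters of Calr and Hspa5 are shown because many of these genes are known to carry the ER stress response element (ERSE), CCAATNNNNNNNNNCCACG. They are given as above, for chr8:84846932-84847181 on the minus strand and chr2:34771840-34772089 on the plus strand. Capitals mark the ERSE, which in Calr runs on the opposite strand.
Calr: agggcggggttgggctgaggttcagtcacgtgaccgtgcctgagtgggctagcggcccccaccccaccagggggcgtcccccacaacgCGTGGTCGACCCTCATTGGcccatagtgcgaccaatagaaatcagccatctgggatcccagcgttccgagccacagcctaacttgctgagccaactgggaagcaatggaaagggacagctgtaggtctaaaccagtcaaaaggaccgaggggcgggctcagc
Hspa5: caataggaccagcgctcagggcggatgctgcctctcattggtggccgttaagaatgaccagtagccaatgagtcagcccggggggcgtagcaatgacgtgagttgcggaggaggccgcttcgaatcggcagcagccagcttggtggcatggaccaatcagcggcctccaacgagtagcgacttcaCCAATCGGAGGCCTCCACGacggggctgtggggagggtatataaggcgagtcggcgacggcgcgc

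The ERSE spans bases -162 to -144 in Calr and -65 to -47 in Hspa5. Searched on both strands, it was in 13 (0.135%) of the 9601 promoters and in 8 (47.1%) of the 17 promoters found for this list: Hspa5, Hsp90b1, Pdia6, Calr, Canx, Dnajc3, Creld2 and Syvn1. The CCAAT of the ERSE read on the other strand is the ATTGG in the last letters of the Y box searched above.

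Pdia3, an oxidoreductase that folds glycoproteins and class I MHC, was at 102, 102, 115 and 103 CPM on HSD, against 226, 152, 132 and 139 CPM on chow (-0.62 ± 0.13 SE, edgeR adjusted p = 0.188). Calr, the lectin chaperone calreticulin, was at 144, 150, 160 and 144 CPM on HSD, against 306, 177, 188 and 202 CPM on chow (-0.54 ± 0.13, adjusted p = 0.369). Sdf2l1, a partner of the chaperone BiP, was at 2.66, 1.31, 2.66 and 1.93 CPM on HSD, against 12, 4.44, 3.61 and 5.02 CPM on chow (-1.56 ± 0.37, adjusted p = 0.363). In each of these chow replicate 1 stood above the other chow hearts and all HSD hearts lay below all chow hearts. Pdia4 had a log2 fold change of -0.75 ± 0.18. Hspa5, which encodes BiP and was added after its values were seen, was at 450, 415, 432 and 450 CPM on HSD, against 1070, 572, 493 and 598 CPM on chow. Without chow replicate 1, 10 of the 20 genes were lower at that p and the median was -0.24, against -0.46 with it. In labelled KO the median was -0.14, with 3 of 20 lower at that p, against 4% of all genes lower and 3.43% higher in that comparison. The integrated stress response, a separate branch, had 0 of 17 genes at that p in either direction, where 6.16% of all genes were. Its members Ddit4, Sesn2, Aldh18a1 and Ddit3 had overlapping diets and log2 fold changes between -0.49 for Sesn2 and 0.67 for Ddit4.

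**Figure D2:**
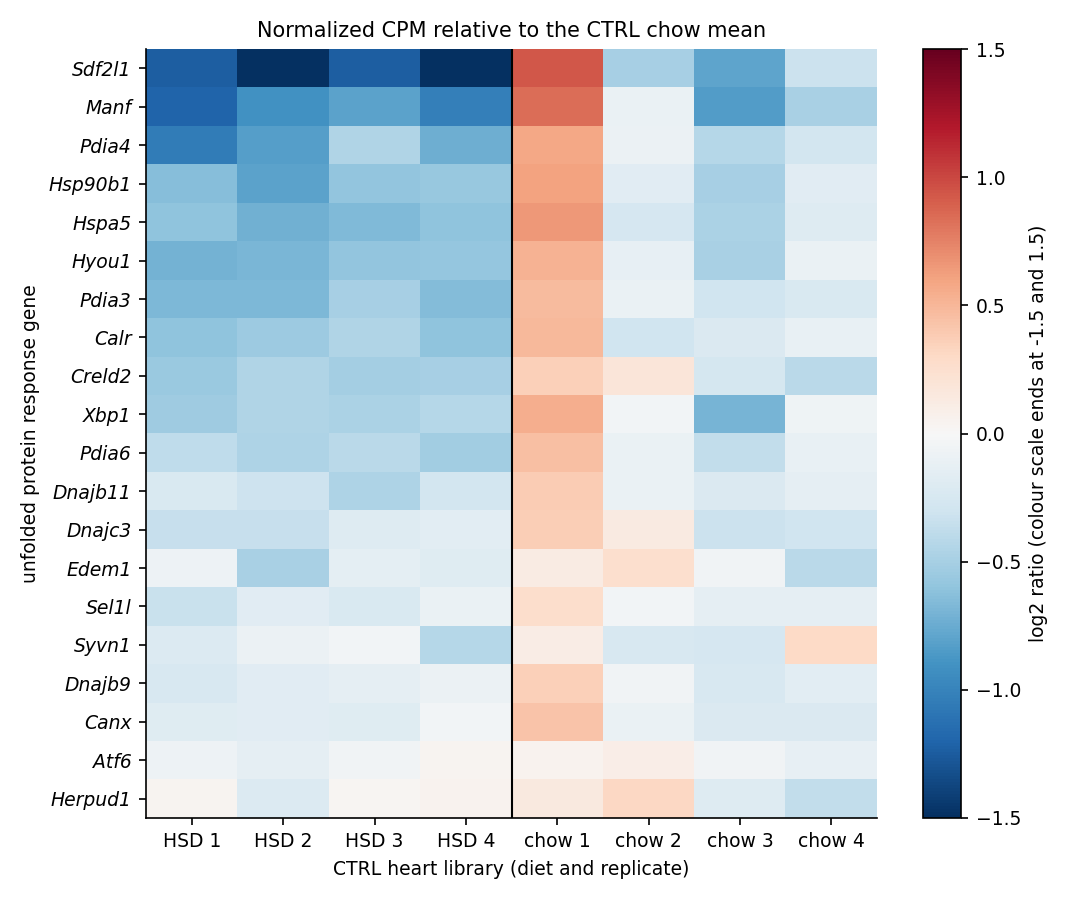
Normalized CPM of 20 unfolded protein response genes (rows) in the 8 CTRL heart libraries (columns), as the log2 ratio to the mean of the CTRL chow libraries. The HSD columns are below that mean for most genes, and chow replicate 1 is above the other chow columns for most, as for Sdf2l1 with 12 CPM. The colour scale ends at -1.5 and 1.5.

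Some genes that make and desaturate fatty acids had higher means on HSD. Of 26 tested, 5 were higher at an unadjusted p under 0.05 and 0 lower, against 2.27% and 3.88% of all genes. The median was 0.11, or -0.01 by limma on log2(TPM + 1), a scale on which the median of all genes was -0.102. Higher means were found for 19 of the 26, against 14 without the atrial pair, where the median was 0.02 and 4 were higher at that p. Without chow replicate 1 the median was 0.065. Scd2, a desaturase that puts the double bond into saturated fatty acids, was at 27.5, 35.5, 24.7 and 19.9 CPM on HSD, against 13.2, 12.2, 13.3 and 12.4 CPM on chow (1.08 ± 0.21 SE, edgeR adjusted p = 0.149). Its relative Scd1 was at 27.8, 60, 33.4 and 39.7 CPM on HSD, against 16.8, 35.9, 16.1 and 16.9 CPM on chow (0.90 ± 0.29, adjusted p = 0.622). In both diets replicate 2, the library with atrial transcripts, was the highest for Scd1, and without that pair its log2 fold change was 1.02 with no overlap. Acaca, the acetyl-CoA carboxylase that makes malonyl-CoA, was at 14.6, 16.9, 19.2 and 20.1 CPM on HSD, against 13.6, 11.5, 11.6 and 12 CPM on chow (0.53 ± 0.13, adjusted p = 0.388).

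The sugar sensor ChREBP, encoded by Mlxipl, was at 9.58, 12.1, 6.7 and 7.14 CPM on HSD, against 3.11, 8.16, 4.54 and 4.42 CPM on chow (0.81 ± 0.29). Srebf1, which encodes the insulin-responsive factor SREBP-1, had a log2 fold change of 0.63 ± 0.23. In labelled KO hearts Scd1 had a log2 fold change of 1.30, Acaca one of 0.48 and Scd2 one of 0.44. Among 21 genes of cholesterol synthesis and uptake, 2 were higher and 0 lower at an unadjusted p under 0.05, against 2.27% and 3.88% of all genes. The exporter Abca1 was among the 2 (0.46 ± 0.12). The synthesis genes Lss and Mvd had overlapping diets, with Lss at most 1.12 CPM.

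**Figure D3:**
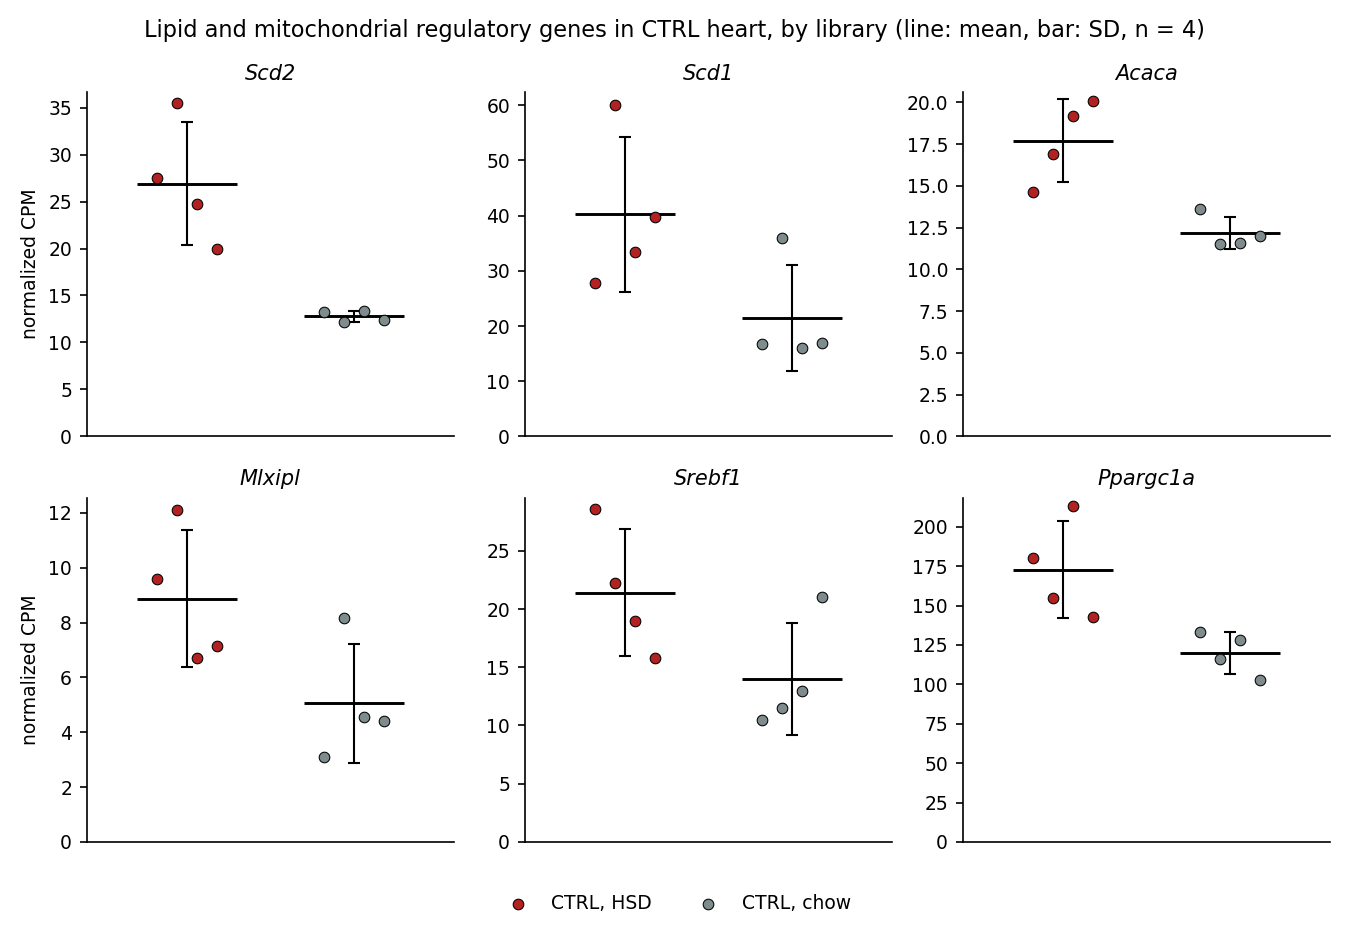
Normalized CPM (y axis, from 0) of 6 genes of lipid metabolism and its control in the CTRL hearts, HSD left and chow right, with the mean as a line and the SD as a bar (n = 4). All 4 HSD libraries of Scd2, at 19.9 to 35.5 CPM, are above all chow libraries, and for Scd1, Mlxipl and Srebf1 the diets overlap.

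Genes that burn fuel are controlled in part by PPAR-alpha and its coactivators. Ppargc1a, the coactivator of mitochondrial biogenesis, was at 180, 155, 213 and 143 CPM on HSD, against 133, 116, 128 and 103 CPM on chow (0.53 ± 0.14 SE, edgeR adjusted p = 0.45). Ppara, the nuclear receptor for fatty acids, was at 41.7, 49.8, 44.9 and 42.8 CPM on HSD, against 39.5, 34.1, 33.8 and 30 CPM on chow (0.38 ± 0.12). Neither passed. Over 30 genes of fatty acid oxidation the median was 0.00, with 16 higher means and 14 lower ones. At an unadjusted p under 0.05, 2 were higher and 1 was lower, against 2.27% and 3.88% of all genes. The 2 were Ppargc1a and Ppara themselves, and the 1 was Angptl4, an inhibitor of lipoprotein lipase (-0.93 ± 0.39). The oxidation enzyme Hadha had a log2 fold change of -0.12 ± 0.07. Among genes of fatty acid binding and uptake, Fabp5 (-0.31 ± 0.12) and Fabp4 (-0.26 ± 0.12) had lower means, and Gpihbp1, which anchors lipoprotein lipase, had a higher one (0.20 ± 0.10).

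All 13 protein genes of the mitochondrial genome had higher means on HSD in CPM, with a median of 0.215, and 1, mt-Atp8, was at an unadjusted p under 0.05. For 10 of them the diets did not overlap, against 1.91% of all genes higher without overlap. On the TPM scale the median of all genes was -0.102, and that of the 13 was 0.07, or 0.17 above it. mt-Atp6 was at 27600, 29100, 27500 and 32000 CPM on HSD, against 25200, 25400, 24500 and 23700 CPM on chow (0.24 ± 0.11). These 13 genes share 1 genome and the share of counts given above, so they are not separate observations. The median over 75 nuclear genes of oxidative phosphorylation was 0.06, with 0 at that p. On the TPM scale it was -0.06, which is 0.04 above the median of all genes there. Their 4 smallest p-values were those of Ndufv2, Atp5g3, Cox5a and Ndufb3, with log2 fold changes of 0.12 for Ndufb3 to 0.18 for Ndufv2. For pyruvate dehydrogenase and the TCA cycle, 32 of 36 genes had higher means with a median of 0.08. On the TPM scale the median was -0.04, which is 0.07 above that of all genes. Pdhb, a subunit of pyruvate dehydrogenase, was the 1 of the 36 at that p (0.21 ± 0.09), where 6.16% of all genes were.

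Of 24 genes of glucose uptake and glycolysis, 1 was higher at an unadjusted p under 0.05, against 2.27% of all genes. It was Pfkfb2, which makes the activator of phosphofructokinase in heart (0.36 ± 0.17). Hk1, Gapdh and Gpi1 had log2 fold changes of 0.20, 0.24 and 0.13. Pkm, the pyruvate kinase of muscle, was at 769, 718, 711 and 604 CPM on HSD, against 517, 703, 798 and 783 CPM on chow, with a log2 fold change of 0.00. In fructose handling, Khk, the ketohexokinase that starts fructose use, overlapped at 4.42 to 7.21 CPM on HSD. Of 17 glycogen genes 1 was higher and 1 lower at an unadjusted p under 0.05, against 2.27% and 3.88% of all genes. Both encode subunits that target a phosphatase to glycogen. Ppp1r3d was at 9.58, 10.4, 8.3 and 11.1 CPM on HSD, against 12, 14.9, 10.9 and 12.7 CPM on chow (-0.36 ± 0.15), and Ppp1r3c was at 133, 141, 136 and 141 CPM on HSD, against 92.3, 72.4, 134 and 89.5 CPM on chow (0.50 ± 0.21). The diets overlapped for both, and neither was at that p without the atrial pair.

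Most matrix and load genes had lower means on HSD. Of 30 collagen and matrix genes, 28 had lower means, with a median of -0.36, and 10 were lower at an unadjusted p under 0.05, against 3.88% of all genes. In labelled KO the median was -0.22, with 10 lower and 3 higher at that p. Col3a1, a fibrillar collagen, was at 104, 79.2, 92.7 and 73.3 CPM on HSD, against 120, 114, 165 and 145 CPM on chow (-0.64 ± 0.19 SE, edgeR adjusted p = 0.598). The collagen-binding protein Sparc had a log2 fold change of -0.38 ± 0.10, the microfibrillar collagen Col6a1 one of -0.43 ± 0.12 and the proteoglycan Bgn one of -0.40 ± 0.13. Without the atrial pair 5 of the 30 were lower at that p, and without chow replicate 2 alone 6 were. All 10 fibroblast markers had lower means, 2 of them, Dpt and Dcn, at that p, and their sum was 1250 to 1640 CPM on HSD and 1540 to 2080 CPM on chow. Their median was -0.31 in CTRL and 0.09 in labelled KO, where 1 was higher and 0 lower at that p.

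Among 15 tested genes of cardiac load, 5 were lower at that p, against 3.88% of all genes, and the median was -0.34. Without the atrial pair 2 were lower at that p and the median was -0.18. Ankrd1, a stretch-responsive protein of the sarcomere, was at 329, 324, 487 and 440 CPM on HSD, against 583, 649, 548 and 931 CPM on chow (-0.78 ± 0.26, adjusted p = 0.624). Xirp2, an actin-binding protein of muscle, was at 536, 511, 625 and 617 CPM on HSD, against 758, 712, 676 and 759 CPM on chow (-0.34 ± 0.12). The natriuretic peptides Nppa and Nppb overlapped, with log2 fold changes of 0.26 ± 0.41 and -0.34 ± 0.42, and without the atrial pair that of Nppa was 0.69 ± 0.41. Postn, made by activated fibroblasts, had a log2 fold change of -0.63 ± 0.22 in CTRL and 0.41 in labelled KO, an interaction of -1.04 that did not pass (edgeR adjusted p = 0.694). Tnnt2, cardiac troponin T, was at 5370, 5330, 4750 and 5170 CPM on HSD, against 3750, 4540, 4430 and 4480 CPM on chow (0.26 ± 0.08). Among the other ventricular markers, the log2 fold change was 0.11 for Pln and 0.06 for Myl2.

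Of the ion channel genes, Kcnj11 (0.26 ± 0.09) and Kcnq1 (0.27 ± 0.11) had higher means and Scn4b (-0.47 ± 0.19) and Hcn4 (-0.55 ± 0.25) lower ones. Proliferation markers were low. Mki67, a marker of cycling cells, was at 3.98, 1.92, 3.09 and 2.61 CPM on HSD, against 7.58, 5.5, 5.37 and 4.31 CPM on chow (-0.97 ± 0.25), and Top2a and Cdk1 also did not overlap. Of 10 endothelial markers 9 had lower means on HSD, with a median of -0.14. In labelled KO the median was -0.22, and 1 was called lower by edgeR. There 5 of the 10 were lower at an unadjusted p under 0.05, against 4% of all genes. The receptors of VEGF were the members at an unadjusted p under 0.05 in CTRL, with Flt1 the 1 higher mean (0.29 ± 0.10) and Kdr lower (-0.26 ± 0.11). Igf1, the growth factor, was at 10.5, 11, 7.45 and 6.01 CPM on HSD, against 12.4, 13.3, 11.1 and 13 CPM on chow (-0.51 ± 0.19). The ubiquitin ligase Fbxo32 had a log2 fold change of 0.29 ± 0.12. Of 21 heat shock genes 16 had lower means, with a median of -0.12. In that list the cold-induced Rbm3 (0.67 ± 0.23) and Cirbp (0.43 ± 0.17) had higher means, while Hsp90aa1 had a lower one (-0.40 ± 0.15).

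**Figure D4:**
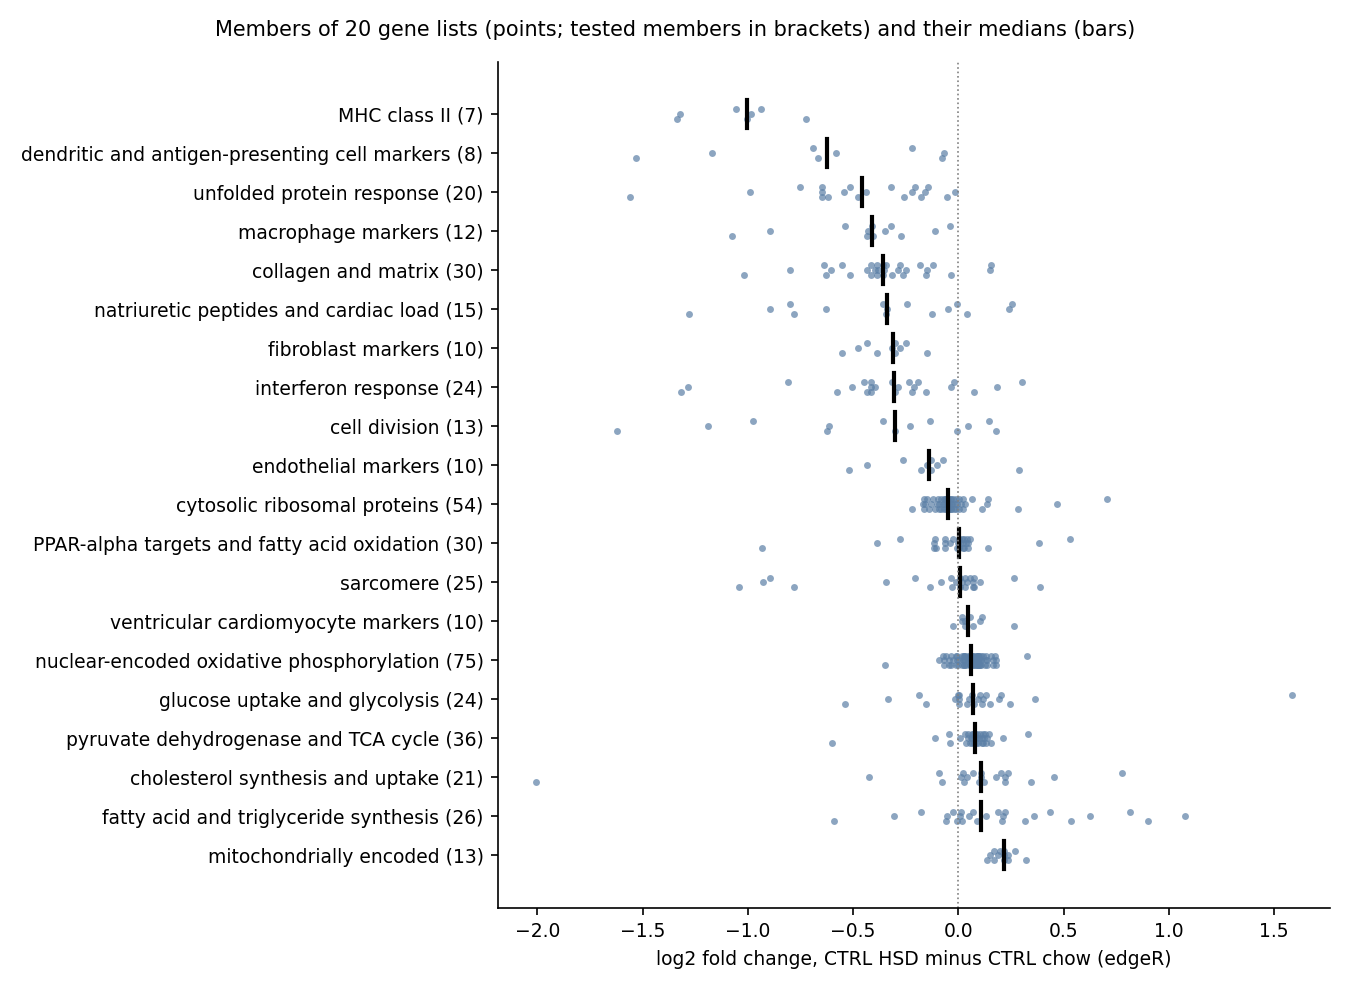
Log2 fold changes, CTRL HSD minus CTRL chow (x axis), of the tested members of 20 gene lists (points), with each list's median as a bar. MHC class II has the lowest median, at -1.005, and the genes of the mitochondrial genome the highest of these lists, with all 13 members above 0.

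The clock gene Arntl was the 1 gene whose diet effect was called different between the genotypes. Clock genes set daily rhythms, and ARNTL with CLOCK or NPAS2 switches on the PER, CRY and DBP genes, which are high when Arntl is low. In CTRL hearts no clock gene was called. Arntl (chromosome 7, 113207465 to 113314126) was at 21.4, 10.6, 18.4 and 12.8 CPM on HSD, against 13.5, 9.85, 13.1 and 12.8 CPM on chow (0.37 ± 0.21 SE, edgeR adjusted p = 0.913). In labelled KO hearts Arntl was at 3.97 to 5.68 CPM on HSD, against 14 to 24.7 CPM on chow (-1.89 ± 0.23, adjusted p = 0.00265). The difference, 2.25 ± 0.31, was the 1 interaction called of 12134 genes (0.00824%; edgeR adjusted p = 0.0149). That call held in 11 of the 16 runs with 1 heart library left out, with adjusted p-values of 0.00276 to 0.0835, and was lost by limma on log2(TPM + 1), with 0.131, and without CTRL HSD replicate 3, CTRL chow replicates 2 or 3, or labelled KO HSD replicates 2 or 3. The 2 HSD replicates of CTRL with the most Arntl, 1 and 3, had the least Dbp, at 3.32 and 5.32 CPM, against 18.6 and 9.86 CPM in replicates 2 and 4. Npas2, Clock, Per3 and Hlf had interactions of 1.77, 0.63, -1.82 and -1.05 that did not pass. An antisense gene, Gm45355, lies within Arntl. The hour of sampling is not given in the labels used here and its part was not tested.

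**Figure D5:**
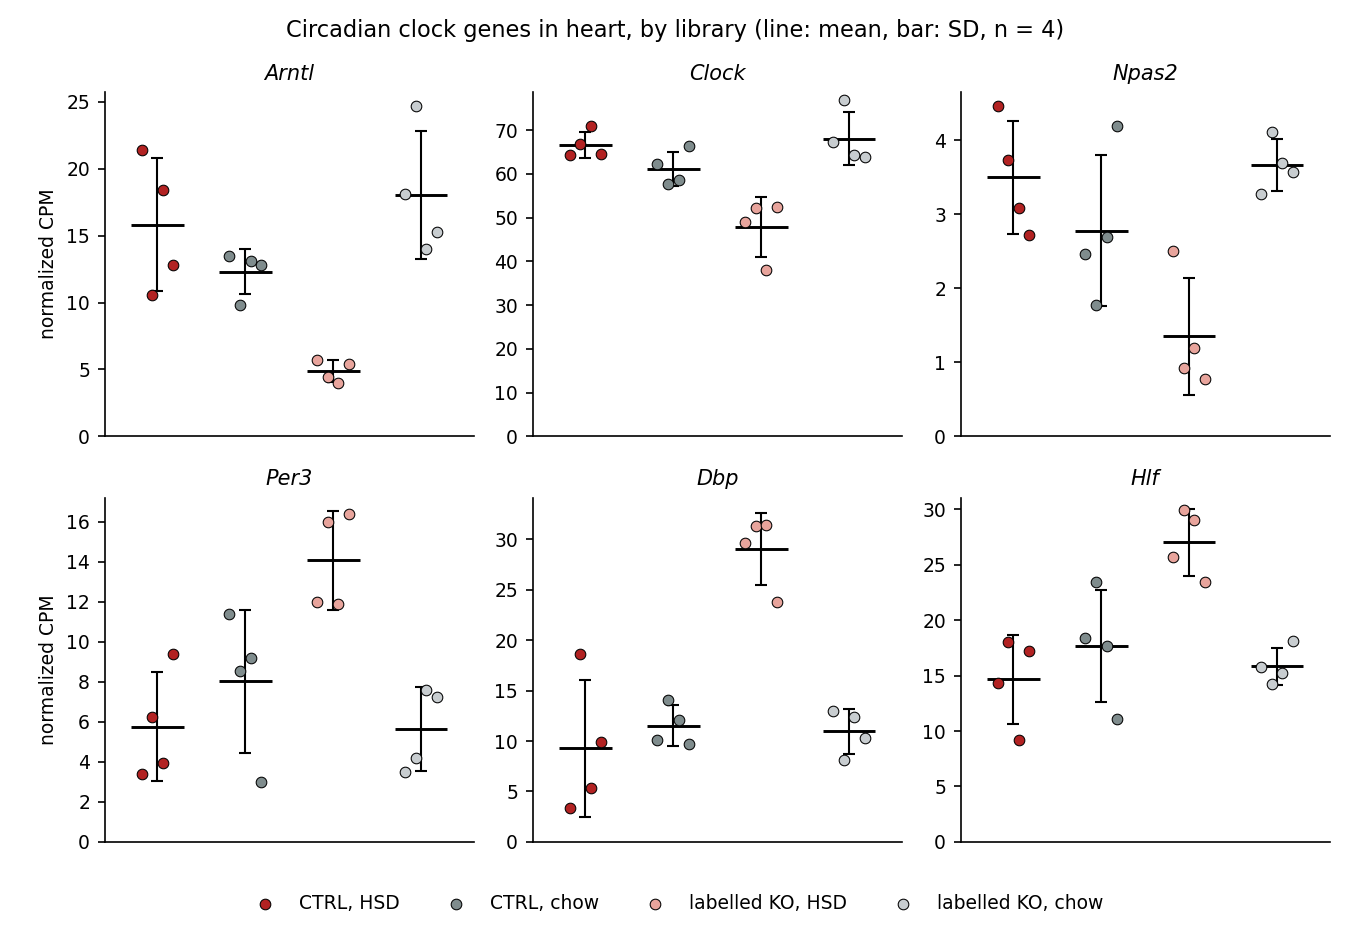
Normalized CPM (y axis, from 0) of 6 clock genes in each heart library of 4 groups, with the mean as a line and the SD as a bar (n = 4). CTRL HSD and CTRL chow libraries overlap for all 6 genes, and the labelled KO HSD libraries of Arntl, at 3.97 to 5.68 CPM, lie below all other libraries.

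In CTRL hearts the clock repressor Per3 had a log2 fold change of -0.51 ± 0.37 and Nr1d1, a nuclear receptor of the clock, one of 0.24 ± 0.19. Of 19 glucocorticoid-responsive genes 16 had higher means with a median of 0.18. Cdkn1a, the inhibitor of the cell cycle, was at 60.1, 52.1, 84.8 and 58.7 CPM on HSD, against 48.5, 34.3, 46.8 and 38.4 CPM on chow (0.60 ± 0.22, adjusted p = 0.666), and its log2 fold change in labelled KO was -0.61. Klf9 had a log2 fold change of 0.23 ± 0.10. By the same test, the diet called 17 genes in labelled KO hearts (0.14%) and 135 of 12394 in CTRL muscle (1.09%), against the 3 in CTRL heart. These counts do not test a difference between tissues, for which 1 gene was called in the fit without a replicate block.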

How the data were processed

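The series holds 64 RNA libraries, of which 8 are compared here and 16 more (labelled KO heart, CTRL muscle) enter the tests of differences. As deposited by the authors, 1 table holds estimated counts and another TPM for the same 19521 genes, both made with kallisto on GRCm38, per the submitters' processing notes. Kallisto's version and the annotation: not given in the sources used here. Per the labels' protocols, each diet and genotype had 4 mice, so libraries are taken as separate animals. Every row names a gene.

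Estimated counts were rounded, and the 16 heart libraries were fitted with a mean per group in edgeR 4.0.16 (R 4.3.3; filterByExpr with a minimum count of 10, TMM, robust quasi-likelihood test, 2-sided, Benjamini-Hochberg adjustment over all genes tested, threshold 0.05). Normalized CPM values use the TMM factors, and errors after log2 fold changes are standard errors. Heart and muscle of CTRL were fitted together for the tissue test. Alternatives were DESeq2 1.42.0 and limma 3.58.1 on log2(TPM + 1) and log2(TPM + 0.1) for genes with TPM of at least 1 in 4 or more libraries. Further ones were no filter, other size factors, a clock covariate, a length correction, a fit without mitochondrially encoded genes and left-out libraries. The fits were tested on simulated data. Over 12 pairs of replicates 0 were identical, and chi-square divided by its degrees of freedom was at least 4.579.

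Genes named are those called, the 10 with the smallest p, Pklr and Pkm, and up to 4 of each described gene list by p. Chosen after seeing values, or as checks, were Myl7, Ciita, H2-DMa, H2-DMb1, the untested class II genes, Hspa5, the other genes with an ERSE, Srebf1, Nppa, Nppb, Npas2, Dbp and Cdc73. The comparison and all 53 lists were chosen with earlier results of these data known, and 2 of the lists after values of these hearts were seen. RefSeq promoters (GRCm38.p6) were matched by symbol for 9601 of the 12134 genes. Title numbers were not taken to pair heart and muscle, since the labels do not tie them to a mouse. Correlations of the 8 same-number pairs were 0.013 to 0.219, 2 of them over 0.1, and 6 of the 8 correlated best with their own number. With 4 mice per diet and genotype, heart and muscle may come from the same mice, and the tissue test without a block leaves out such a pairing. Some members of these lists are counted but not reported here by name.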

Additional observations from a re-analysis of the deposited data

Results flagged for a closer look

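A library far from the other 3 of its group, by the gap between it and its neighbour over the range, was found in 17 of 262 groups of values checked, and chance flags about 1 in 20 groups. In CTRL chow replicate 1, B2m was high at 212 CPM, Sdf2l1 at 12, Nfil3 at 10.9 and Pln at 6100, while Atp5g3 was low at 661 and Tnnt2 at 3750 CPM. In the pair of libraries with atrial transcripts, HSD replicate 2 was apart for Sln at 16.2, Dkk3 at 13.4 and Gpihbp1 at 56.5 CPM, and chow replicate 2 for Sln at 42.4 and Scd1 at 35.9 CPM. H2-Aa was lowest in chow replicate 4, at 35.9 CPM, which still lies above all HSD hearts. Pdia3 was high at 115 CPM and Pln low at 5490 CPM in HSD replicate 3, and Apoa2 was at 1.8 CPM in HSD replicate 1. Chow replicate 3 was apart for Lss, listed at 0, and for Glyctk at 0.926 CPM.

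The diet effect on Arntl differed between CTRL and labelled KO hearts by 2.25 on the log2 scale, and that on B3galt2 between heart and muscle of CTRL mice by -1.88, each by an edgeR interaction test.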

How the results depend on the processing

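Against 3 genes called, the DESeq2 Wald test called 18, limma on log2(TPM + 1) 0 and on log2(TPM + 0.1) 0, the 8 CTRL hearts fitted alone 5, a clock score as covariate 1, removal of each library's length trend 5, and the fit without both libraries with atrial transcripts 0 (322 lower and 204 higher at an unadjusted p under 0.05). The last, and limma after TMM scaling of TPM with 2 calls, were chosen after seeing the data. Leaving out 1 library gave 1 to 3 calls. On the TPM scale the median of all genes was -0.102 and genes at an unadjusted p under 0.05 split into 55 higher and 934 lower, against 276 and 471 as reported and 253 and 392 after TMM scaling of TPM. With each library's length trend removed the split was 394 higher and 361 lower, so the excess of lower genes was not kept there. Without the mitochondrially encoded genes it was 318 higher and 423 lower. In that fit 2 genes were called, H2-Aa and B3galt2, and the call of H2-Ab1 was lost. Members of the leading lists at that p ranged, with 1 library left out, from 5 to 6 for MHC class II, 4 to 8 for interferon response, 3 to 7 for macrophage markers (3 without chow replicate 1), 10 to 14 for unfolded protein response, 6 to 12 for collagen and matrix and 4 to 6 for fatty acid synthesis. Interferon response had 4 and collagen 5 without both atrial libraries, and fatty acid synthesis 2 under either limma pseudocount. Interaction calls by genotype were 12 by the Wald test, 0 by limma and 0 to 6 with 1 library left out. Those by tissue were 3 without the filter, 118 by the Wald test, 22 by limma and 0 to 26 with 1 library left out (26 without muscle chow replicate 3). With the title number as a replicate block they were 2, B3galt2 not among them. The labels tie the samples of a block only by that number, and 6 of 8 correlated best with their own. Causes of these differences were not tested. Of 2366 values for the 126 named genes under 19 settings, 2175 kept their side of the threshold and, where not called, stayed within a standard error, 148 moved by more than that, 16 gained and 27 lost the call. None with an unadjusted p under 0.05 as reported changed sign under these settings. With 4 libraries a group, genes of a few CPM or less had wide errors, with standard errors of 0.37 for Sdf2l1 and 0.57 for Cdk1 on the log2 scale.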
